A study of Rattus norvegicus with 8 samples.

Results

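The promoter regions of Actl6b and H2afy2, a pair of genes for chromatin proteins, were followed CpG by CpG in bladder urothelial carcinomas (UCs) of rats given dimethylarsinic acid (DMA). They are 2 of the 246 regions that the study listed as hypermethylated in the UCs, and each was taken with all CpGs up to 1 kb on either side. The F344/DuCrj rats were 10 weeks old at the start and drank water with 0 or 200 ppm DMA for 104 weeks. Per the methods, rats that became moribund were killed as well, so some samples may come from fewer weeks. The 3 controls are bladders of rats on 0 ppm, named bladder urothelium in the labels and bladder tissue in the methods, and the 5 UCs are bladder tumors of rats on 200 ppm. The methods give male rats and tumors over a size limit without histological examination, and it is not stated whether each UC came from a different rat, so that the spread between UCs may be smaller than that between rats.

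DNA methylation was measured by reduced representation bisulfite sequencing (RRBS), in which DNA is cut at CpG-rich restriction sites and unmethylated cytosines are read as T. The methylation level of a CpG or region is the count of C calls divided by the count of C and T calls. The samples had 51434938 to 73836223 calls each, and the median CpG was read 14 to 18 times. Expression was not measured in these files, so the labelled tissues could not be checked against marker genes. The paper measured it in the same UCs by microarray. It lists H2afy2, as Macroh2a2, among the genes both hypermethylated and downregulated in them, and does not list Actl6b there. Those expression data were not analysed here. In bulk DNA, a level between the extremes can come from methylation on part of the DNA copies of all cells or from a part of the cells, and these cannot be told apart.

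Actl6b encodes an actin-like subunit of the BAF (SWI/SNF) complex, which moves nucleosomes with the energy of ATP. It is known as the subunit of neurons, where it takes the place of the more widely expressed Actl6a when neural precursors stop dividing. H2afy2, now named Macroh2a2, encodes the histone variant macroH2A.2, an H2A with a large additional macro domain that is found in silent chromatin, including the inactive X chromosome. CpG islands at promoters are mostly unmethylated in normal tissue, and their methylation in tumors is a known accompaniment of silencing.

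The region of Actl6b lies on chromosome 12 of rn6 (chr12:22210968-22211060) and that of H2afy2 on chromosome 20 (chr20:31402631-31402682). Both genes were found in RefSeq, H2afy2 as Macroh2a2, and the spacing of the CpGs in the 300 bases around their RefSeq start was compared with the CpGs of the deposited files. In the window of Actl6b, 21 of 21 CpGs of the files fell on CpGs of the sequence at 1 offset, whereas the next best offset gave 9. For H2afy2, 21 of 21 matched, against 8 at the next best. Both matches were on the minus strand, and the start sites they gave were within 0.5 bases of those implied by the distance listed for each region. The region of Actl6b therefore extends from 20 to 112 bases downstream of the start, and that of H2afy2 upstream of it, from -199 to -148. Exon boundaries of rn6 were not used here. Distances below are counted from this start along the gene, to the C of the CpG on the plus strand of rn6.

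The sequences are shown because single CpGs a few bases apart differed widely in the UCs, and they are from RefSeq on the minus strand of GRCr8. The first is the fragment of the H2afy2 region (chr20:30270798-30270854), from -202 to -146. The CpG at -158, which had the higher level of its 2 CpGs in every UC, is in capitals. The second is the stretch of 250 bases upstream of the H2afy2 start (chr20:30270653-30270902) with all CpGs in capitals.
H2afy2 region: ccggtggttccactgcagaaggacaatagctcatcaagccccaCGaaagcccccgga
H2afy2 upstream: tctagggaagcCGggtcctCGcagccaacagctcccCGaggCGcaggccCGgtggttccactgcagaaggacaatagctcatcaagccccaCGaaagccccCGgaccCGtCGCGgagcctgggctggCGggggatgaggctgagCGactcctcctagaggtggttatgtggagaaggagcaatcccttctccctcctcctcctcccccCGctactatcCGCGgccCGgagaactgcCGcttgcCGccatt

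For Actl6b, the bases from -100 to the start (chr12:24778151-24778251) hold the CpGs measured upstream of it. The stretch of 29 bases from 20 to 48 downstream (chr12:24778103-24778131) holds 5 CpGs of the listed region. All CpGs are in capitals.
Actl6b upstream: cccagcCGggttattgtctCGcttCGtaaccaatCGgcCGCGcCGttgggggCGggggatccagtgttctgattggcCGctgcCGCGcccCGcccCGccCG
Actl6b region, part: gcCGcctCGgtgctgatccCGcCGcCGcc

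Both windows were rich in CpG. The 300 bases of Actl6b hold 26 CG pairs, a number reached by 15.2% of 33469 RefSeq promoters of the same length, and those of H2afy2 hold 21, reached by 22.6%. The restriction site CCGG, which MspI cuts, was present 4 times at Actl6b and 6 times at H2afy2. These numbers were reached by 12.5% and 4.17% of the promoters, and 51.4% hold the site at least once. The site TCGA, which TaqI cuts, was absent from both windows and is present in 23.0% of the promoters. Each of these motifs is its own reverse complement, so both strands were counted, and every CCGG or TCGA also counts as a CG.

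The region of Actl6b was nearly unmethylated in the controls and partly methylated in the UCs, 4 of which were close to an even mix. Controls 1, 2 and 3 had levels of 3.62%, 2.41% and 4.08%. UC 1 and UC 2 reached 56.5% and 55.7%, UC 4 and UC 5 reached 49.6% and 44.1%, and UC 3 had 16.7%. The groups did not overlap, and UC 3 was far below the other UCs. The 14 CpGs of the region were covered by 388 to 858 calls per sample, and the 95% Wilson interval of UC 3 was 13.7% to 20.3%. Several CpGs lie on 1 read, so these intervals cover counting error only and are too narrow. The group means were 3.37% ± 0.864 (controls; SD, n = 3) and 44.5% ± 16.3 (UCs; SD, n = 5) and lay 41.2 points apart. Because the study listed the region for this contrast in these samples, the difference is given as a description and was not tested. Without UC 3 it was 48.1 points.

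The region of H2afy2 rests on far fewer calls. It holds 2 CpGs with 77 to 125 calls per sample, and controls 1 and 3 had levels of 5.19% and 3.60%. Control 2 had 0 methylated of 81 calls, which allows a level of up to 3.70% if the calls are independent. By the Wilson interval the upper limit is 4.53%. As the 2 CpGs can lie on the same reads, both limits are too low. UC 1 and UC 2 had 38.4% and 49.5%, UC 4 and UC 5 had 24.4% and 27.6%, and UC 3 had 7.41%. Every UC was above every control, but the Wilson interval of UC 3, 3.80% to 13.9%, held the 5.19% of control 1. With so few calls, UC 3 could not be told from this control. The group means were 2.93% ± 2.66 (controls; SD, n = 3) and 29.5% ± 15.8 (UCs; SD, n = 5) and lay 26.5 points apart, or 32.0 points without UC 3.

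The order of the UCs was similar at both genes. UC 1 and UC 2 were highest, UC 4 and UC 5 followed, and UC 3 was lowest. Within each of these pairs, the Wilson intervals overlapped in both regions. The gain of UC 3 over the mean of the controls was 27.8% of the mean gain of the other UCs at Actl6b and 14% at H2afy2. Over the 227 listed regions with at least 10 calls in every sample, the median of this share was 48.6%, and 58 regions were below Actl6b and 24 below H2afy2. By the difference of group means, Actl6b was 21st and H2afy2 57th of the 227, whose median difference was 18.3 points. Of these regions, 29 had fewer than 3 CpGs with 3 reads in every sample, as H2afy2 did.

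**Figure D1:**
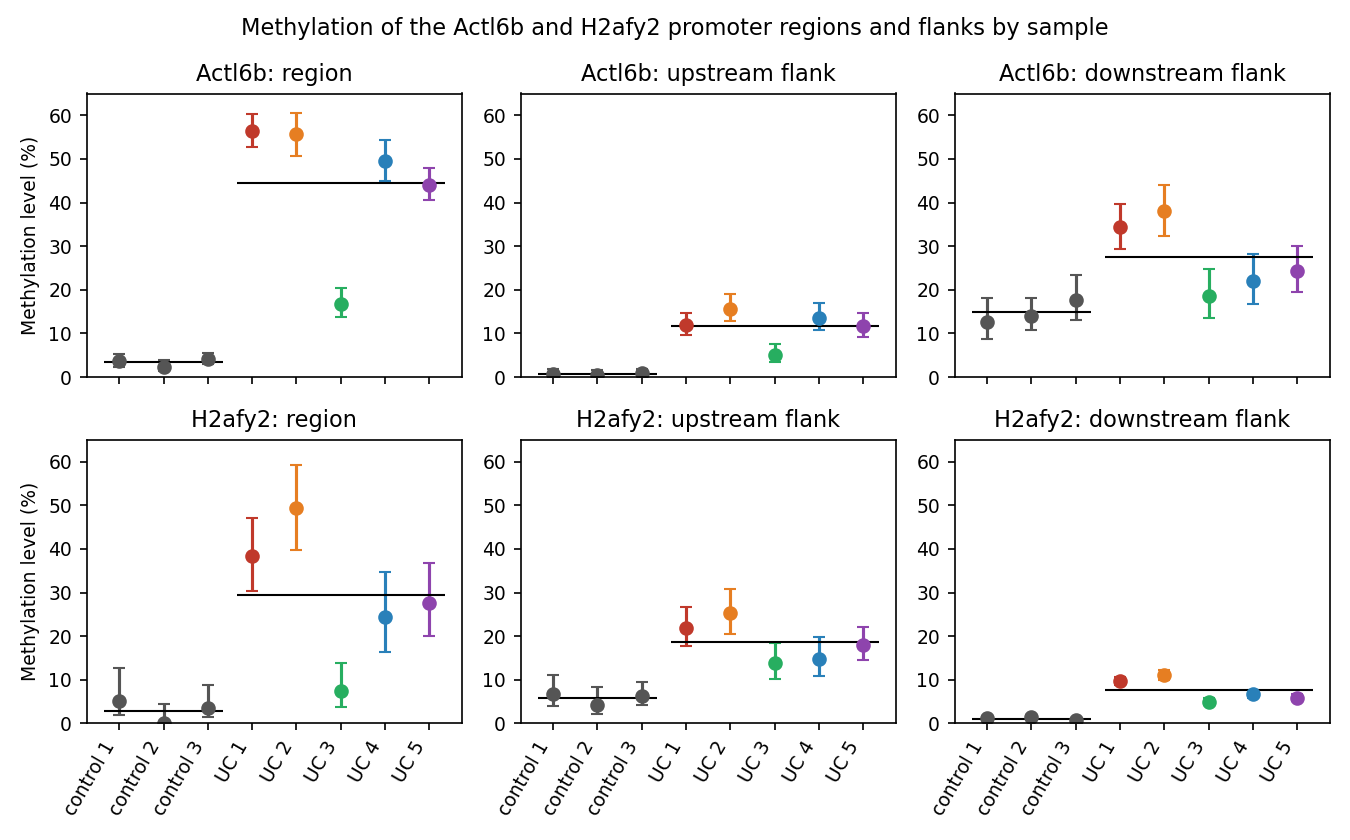
Methylation level (%) of the listed region and of its flanks upstream and downstream along the gene, for Actl6b (top) and H2afy2 (bottom), in the 3 controls and 5 UCs. Points are samples, bars are 95% Wilson intervals from the calls and lines are group means. In the Actl6b region, UC 3 at 16.7% sits between the controls and the other UCs, which lie at 44.1% to 56.5%.

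At H2afy2, the difference lay mostly at 1 of the 2 CpGs. The CpG at -158 (position 31402641) was at 7.32%, 0% and 5.0% in controls 1 to 3. At single CpGs counting error is large, as 0 of 10 reads still allows a level of up to 30.0%. In the UCs the CpG was at 58.6%, 86.3%, 11.7%, 41.5% and 47.4%, in the order UC 1 to UC 5. The other CpG, 10 bases away at -148 (position 31402631), had a difference of 5.76 points between the group means. Without the CpG at -158, the difference of the region is these 5.76 points. With the CpG 1 base past the listed end, it is 19.2 points.

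At Actl6b, the gain was spread over the region but uneven. Of its 14 CpGs, 13 were more than 10 points higher in the UCs and 11 more than 20 points higher, and the differences ranged from 6.51 to 57.4 points. The largest was at 43 bases downstream of the start, with 8.62% to 10.9% in the controls. There UCs 1 to 5 had 74.4%, 94.7%, 31.0%, 69.0% and 67.5%. The smallest was at the far end, at 112 bases, where the UCs were at 3.45% to 12.5% and the controls at 0%. Between 40 and 28 bases the mean level of the UCs fell from 49.8% to 18.0%, in the stretch printed above. The median of the 14 CpG differences was 45.3 points.

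Every UC was above every control at 12 of the 14 CpGs of the Actl6b region and at 1 of the 2 of H2afy2. In the flanks this held for 11 of 21 and 20 of 75 CpGs. Over the 1203632 CpGs of the genome with at least 10 reads in every sample, 9.26% were separated in this way, and 7.24% were over 20 points higher in the UCs. Since the regions were listed for this contrast, nothing can be read from these counts.

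The gain at Actl6b was not limited to the listed region. The CpGs on its upstream side, from 19 bases downstream to 93 upstream of the start, were at 0.640%, 0.442% and 0.904% in controls 1 to 3. In UCs 1 to 5 they were at 11.9%, 15.7%, 5.16%, 13.6% and 11.7%. No UC overlapped the controls, and the difference of means was 10.9 points. At the CpGs at -80 and -93, the farthest upstream that the files list within 1 kb, the differences were 3.41 and 1.93 points, and how far any gain reached beyond them was not measured.

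At its other end, 8 CpGs between 100 and 199 bases downstream, of which the first 2 belong to the region, had no methylated call in the 3 controls. They were at 15.5%, 29.3%, 10.3%, 21.1% and 26.5% in UCs 1 to 5, on 78 to 168 calls per sample. At the next 3 CpGs, between 279 and 373 bases, every UC was below 10%, while controls 1 and 3 had 12.9% and 18.8% at the first of them. Over their summed calls, the controls had 5.61% ± 2.91 (SD, n = 3) and the UCs 3.87% ± 2.57 (SD, n = 5), and the groups overlapped. Beyond them, the CpGs at 408, 715 and 846 bases were partly methylated in the controls already, at 24.0% to 50%, and their group means were 16.8, 9.48 and 32.1 points higher in the UCs, with overlap between the groups. At 846 bases, UC 1, UC 2 and UC 3 were at 93.3%, 90.9% and 77.8%, whereas UC 4 and UC 5 were at 53.8% and 42.3% and the controls at 29.6% to 45.5%. At 408 bases, UC 3 was at 3.85%, below the controls, and UC 1 at 73.2%.

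**Figure D2:**
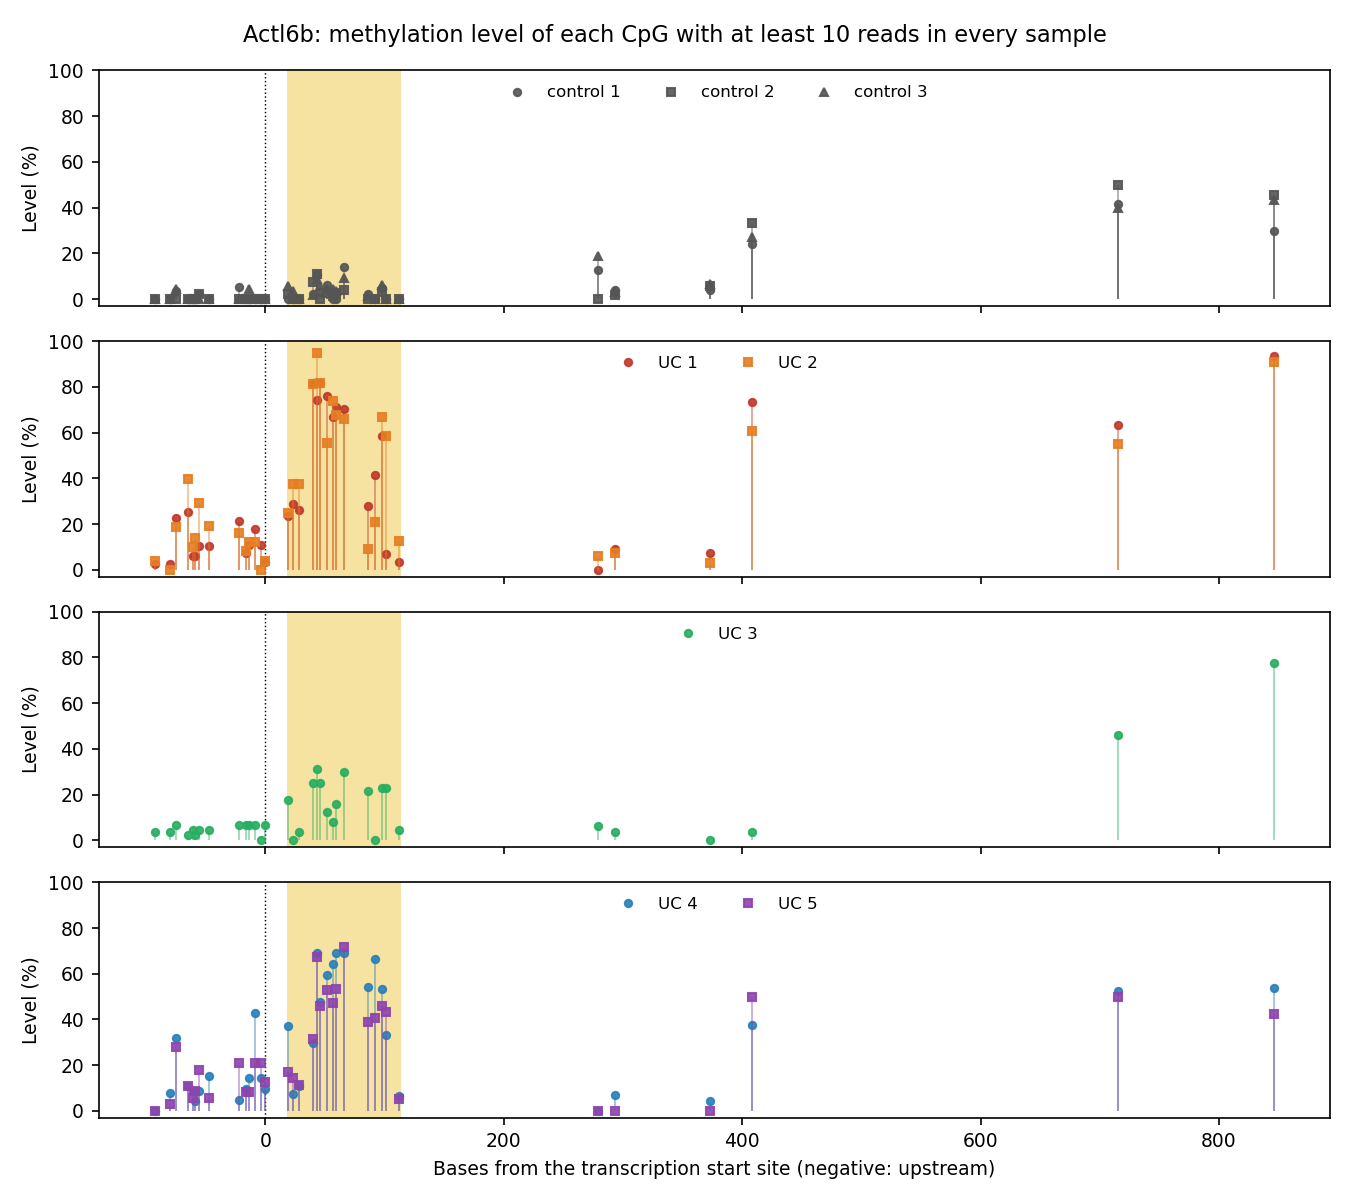
Methylation level (%) of each CpG of Actl6b with at least 10 reads in every sample, by bases from the transcription start, with the controls, UC 1 and UC 2, UC 3, and UC 4 and UC 5 in separate panels. The shaded band is the listed region and the dotted line the start. Over the band as a whole all UCs are raised, UC 3 least, but single CpGs differ, and UC 3 is at 0% at 92 and 23 bases. The 3 CpGs between 279 and 373 bases stay below 10% in every UC.

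The flanks of H2afy2 held many CpGs with a small gain each. On the downstream side of the region, 90 CpGs reached from -142 to 772 bases downstream of the start, and their levels were low in the controls. Controls 1 to 3 had 1.18%, 1.42% and 0.747%. UCs 1 to 5 had 9.71%, 11.1%, 4.89%, 6.69% and 5.88%, which did not overlap with the controls, and the means differed by 6.53 points. With 2678 to 4139 calls per sample, this flank has more calls than the region. On the upstream side, 8 CpGs had 4.30% to 6.76% in the controls and 13.8% to 25.3% in the UCs.

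In bands along the gene, the difference of means at H2afy2 was 14.5 points from 400 to 201 bases upstream, 15.5 points from 200 to 101 upstream and 7.77 points in the last 100 bases before the start. Downstream of the start it was between 3.45 and 7.70 points in each band up to 899 bases. The groups did not overlap in any of the 8 bands, with the UCs above, the controls being at 0.528% to 6.63% on average. At Actl6b, the bands with such separation were those from -100 to 199 bases, with differences of 10.6, 40.3 and 20.6 points. How common such separation is in bands elsewhere in the genome was not counted, so it is not read as particular to these genes.

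In the test of 200-bp tiles across the genome by the quasi-binomial model with limma moderation, 9.37% of 258144 tiles were called higher in the UCs and 7.2% lower, at an adjusted p-value under 0.05 and a difference over 10 points. This background moved with single samples, as the 24176 tiles called higher became 13827, 13135 and 11622 without control 1, 2 or 3 and 32855 without UC 3. At Actl6b 2 of 3 tiles were called higher, both with CpGs of the region. At H2afy2 1 of 6 was, the tile that holds the region, and in the other 5 the differences were 5.43 to 7.16 points, under the limit, with every UC above every control. The share of tiles over the genome with such separation is not given here, so it is not read as particular to H2afy2. As the regions were chosen by the same contrast, these counts are a description.

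**Figure D3:**
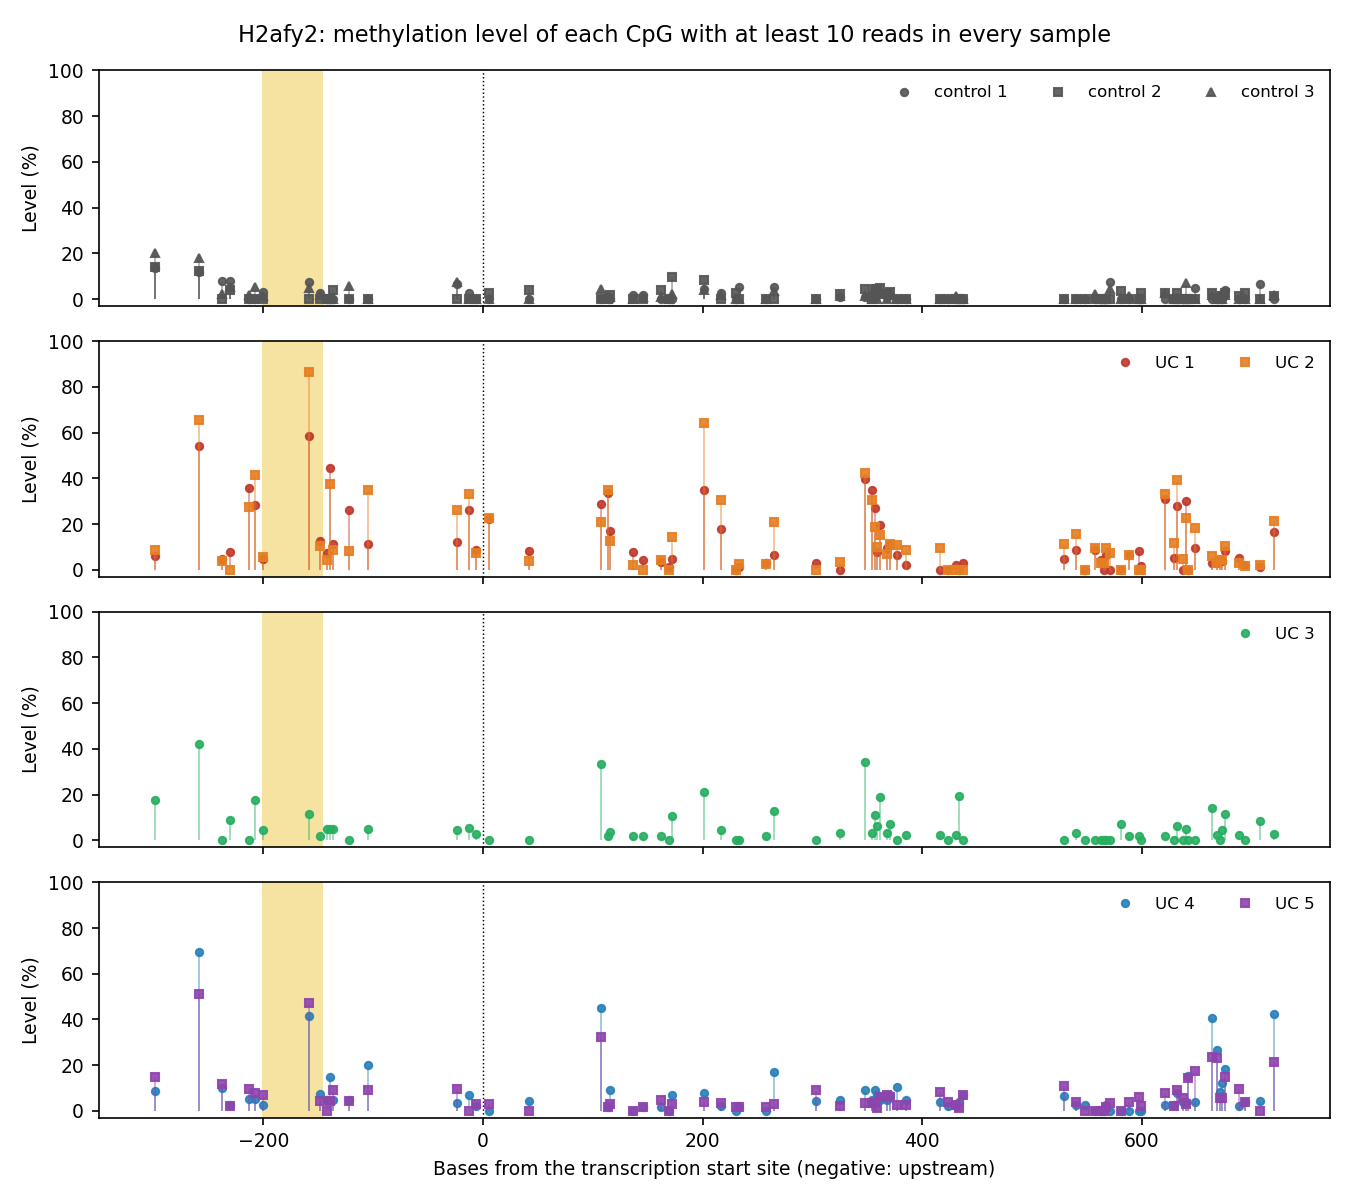
Methylation level (%) of each CpG of H2afy2 with at least 10 reads in every sample, by bases from the transcription start, with the panels, band and dotted line as for Actl6b. Isolated CpGs rise from a low background, and those of UC 1 and UC 2 are often not those of UC 4 and UC 5. The CpGs at -259 and 107 bases are raised in all 5 UCs.

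The low average around H2afy2 hid single CpGs with high levels. Of the 75 CpGs of the flanks with at least 10 reads in every sample, 5 were over 20 points higher in the UCs, while the median difference was 4.80 points. Over the genome, 7.24% of such CpGs were over 20 points higher, so the count is not particular to H2afy2. At -259 (position 31402742), outside the listed region, controls 1 to 3 were at 11.9%, 12.1% and 18.2%. UCs 1 to 5 were at 54.2%, 65.6%, 42.0%, 69.4% and 51.2%, a difference of 42.4 points that was close to the 45 points of the CpG at -158. At 107 bases downstream (position 31402376), controls 1 to 3 were at 0%, 0% and 4.35%, and the UCs at 28.6%, 20.7%, 33.3%, 44.8% and 32.4%. UC 3 was the lowest UC at the first and the second highest at the other. These CpGs were chosen after their values were seen.

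Other CpGs were raised in some of the UCs only. At 13 of the 77 CpGs around H2afy2, both UC 1 and UC 2 were at least 10 points above the other 3 UCs, and at 2 both UC 4 and UC 5 were. The share of all CpGs of the genome that meet this rule was not counted, so these counts are not read as particular to H2afy2. The CpG at 114 bases was at 33.7% in UC 1 and 34.8% in UC 2, but at 1.75%, 1.89% and 1.56% in UCs 3 to 5. The CpG at 354 bases was at 34.9% and 30.5%, against 3.13%, 4.65% and 3.57%. In turn, the CpG at 668 bases was at 26.5% in UC 4 and 23.3% in UC 5 and at 2.27% to 3.06% in the other UCs, and all 3 controls had 0% there. On 8 to 28 reads, the CpG at 487 bases was at 63.6% in UC 4 and 45.5% in UC 5 and at 8.0% to 13.3% in the other UCs. At 348 bases UC 3 was with UC 1 and UC 2, at 34.4% beside 39.7% and 42.4%, and UC 4 and UC 5 were at 9.30% and 3.57%. UC 3 alone was raised at 433 bases, at 19.5% against 0% to 3.92% in the other UCs.

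At Actl6b, UC 1 and UC 2 exceeded the other UCs by at least 10 points at 7 of 35 CpGs and UC 4 and UC 5 at 1. Here too the share over the genome was not counted. At 40 bases downstream of the start, UC 1 and UC 2 were at 81.6% and 81.3%, and UCs 3 to 5 at 25.0%, 29.6% and 31.4%. At 86 bases, UC 4 and UC 5 were at 54.3% and 38.7%, and UC 1 and UC 2 at 28.1% and 9.09%. Just beyond the region, on 6 to 18 reads, the CpG at 125 bases had 73.3%, 69.2% and 12.5% in UCs 1 to 3 and 0% in the other two. At 164 bases the pairs changed places, as UC 4 and UC 5 had 60% and 66.7%, UC 1 and UC 2 had 13.3% and 9.09%, and UC 3 had 0%.

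The root mean square (RMS) difference per CpG gives the distance between 2 samples. At H2afy2, over 77 CpGs, it was 7.88 points between UC 1 and UC 2 and 5.98 points between UC 4 and UC 5, and 8.82 to 16.5 points between the other 8 pairs of UCs. Counting error alone gives 6.82 and 5.54 points for the first 2 pairs, so that the pairs were 1.16 and 1.08 times as far apart as counting gives, against 1.70 to 2.52 times for the other UC pairs. At Actl6b, over 35 CpGs, UC 1 and UC 2 were 13.0 points apart, 1.39 times the counting error, and UC 4 and UC 5 were 10.1 points apart, 0.99 times. Between the remaining UCs the distance was 17.9 to 30.8 points, or 1.83 to 3.26 times. The 3 pairs of controls were below the counting error at both genes, at 0.626 to 0.882 times and 0.761 to 0.917 times.

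Within the UCs, the profiles along the CpGs had a Pearson's r of 0.891 for UC 1 with UC 2 and 0.877 for UC 4 with UC 5 at H2afy2, and of 0.452 to 0.603 for the other UC pairs. At Actl6b the values were less far apart, at 0.903 and 0.917 for these pairs and 0.562 to 0.843 for the others. These are descriptions over CpGs of the same molecules, which are not independent. UC 3 was nearer to the controls than the other UCs were, at 12.8 to 13.8 points at Actl6b against 27.8 to 39.6, and at 7.83 to 8.43 points at H2afy2 against 9.62 to 20.3. When each of the 2 close pairs was averaged into 1 sample, the differences of the regions were 36.5 points for Actl6b and 22.9 points for H2afy2.

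**Figure D4:**
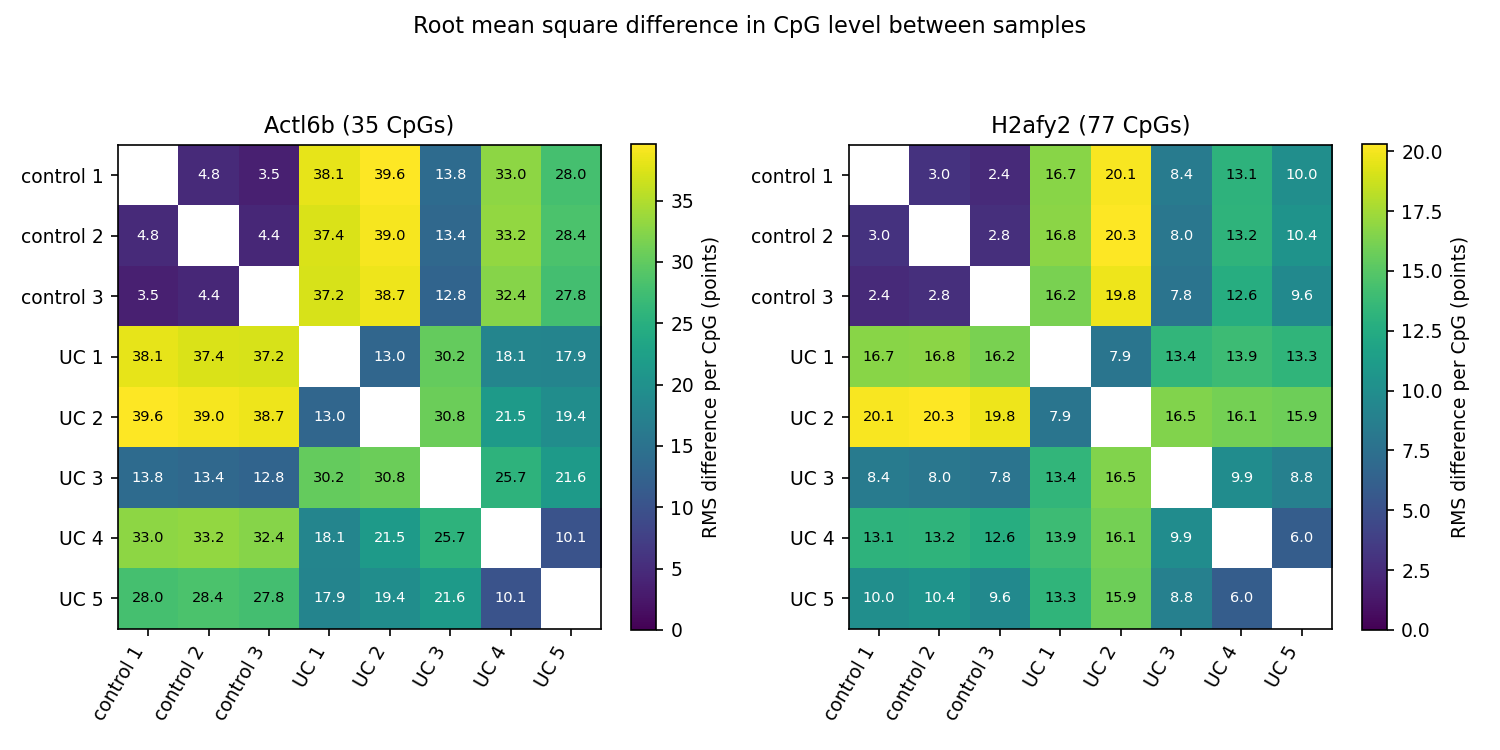
Root mean square difference in methylation per CpG, in percentage points, between every 2 of the 8 samples, at Actl6b (left) and H2afy2 (right), with each panel on its own colour scale. UC 1 with UC 2 and UC 4 with UC 5 are the closest pairs of UCs at both genes, and UC 3 lies nearest to the controls.

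The number of calls around a gene was not used to list it and was tested. The share of autosomal calls within 500 kb of the region was compared by an exact permutation test over the 56 divisions of the 8 samples, whose smallest p is 0.0179. At Actl6b it was 0.09 higher in the UCs on the log2 scale (SD 0.03 in the controls, 0.11 in the UCs; exact permutation test, two-sided, p = 0.25, adjusted over the 2 genes 0.25). UC 1 was highest, at 0.23 above the mean of the controls. At H2afy2 the difference was 0.08, and 4 of the 5 UCs were above all controls (exact permutation test, two-sided, p = 0.0357, adjusted 0.0714). Neither passed after adjustment, which does not show that the depths were alike, and both p-values measure only the spread between these samples. The test also takes the 5 UCs as independent, which the close pairs among them may not be. At H2afy2, UC 1 and UC 2 were both at 0.12 above the mean of the controls.

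Among the listed regions, the levels most like those of Actl6b over the 8 samples were those of Fstl1, a secreted follistatin-like glycoprotein, with an RMS difference of 3.73 points. Ranbp17, a nuclear transport receptor, followed at 4.66 points and Trank1 at 4.77 points. Those most like H2afy2 were Pctp, a phosphatidylcholine transfer protein, at 3.96 points, Cbln1, a secreted synaptic organizer, at 4.79 points, and Nptx2, a neuronal pentraxin, at 5.08 points. The 6 were chosen by this likeness, and nothing is read from it. The other subunits of the BAF complex and the other H2A variants were not analysed here, because no annotation of rn6 was used.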

How the data were processed

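Per the file headers and the paper's methods, the authors trimmed the reads, mapped them with RRBSMAP to rn6 at unique positions, removed PCR duplicates by a barcode, and deposited counts of C calls and of C and T calls per CpG with both strands combined. The deposited effective count is an expected count, corrected by the caller for base variants, and the deposited ratio is a fraction from 0 to 1. The ratio was not used and the effective count served as an alternative.

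Methylated and total calls were added up over the CpGs of a region with at least 3 reads in a sample. Tiles of 200 bp with at least 3 such CpGs in every sample were tested with a quasi-binomial model and an F-test, with the dispersion moderated by limma 3.58.1 in R 4.3.3 and Benjamini-Hochberg adjustment. On simulated calls the test made few false calls, and it missed most changed tiles where the samples varied more. The simulated samples were drawn independently, without close pairs such as those seen among the UCs at both genes. The rate of false calls with such pairs was therefore not tested. Depth was tested by exact permutation. Python 3.11.15, numpy 2.4.6, pandas 2.3.3, scipy 1.17.1 and matplotlib 3.10.9 were used.

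The genes, windows and related lists were chosen with earlier results of these data known. Named beside both genes are the 3 listed regions nearest to each in RMS difference over the 8 samples. RefSeq sequences are of GRCr8, and a genome of rn6 was not used. Alternatives were coverage minimums, unweighted CpG means, the effective count, pooled calls, other tiles, models and windows, a replicate block and each sample left out.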

Additional observations from a re-analysis of the deposited data

How the results depend on the processing

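The differences of both regions and both flanks kept their direction in the 8 other settings of each flank and the 9 of each region. This says little, as the regions were listed for that direction. The groups did not overlap, so leaving 1 sample out could not reverse it. In both regions, minimums of 5 and 10 reads and the CpGs shared by all samples gave the main 41.2 and 26.5 points again. Every CpG there had at least 10 reads, so these settings checked nothing. At H2afy2 the effective count changed nothing either. The differences moved by less than the SD of the UCs in all but 1 setting, H2afy2 without its leading CpG, at 5.76 points. With 1 sample left out, they were 38.2 to 48.1 points for the Actl6b region and 9.84 to 13.4 for its flanks. For H2afy2 they were 21.5 to 32.0 in the region and 6.21 to 7.87 in its flanks. The depth differences were 0.02 to 0.12 on the log2 scale at Actl6b and 0.04 to 0.11 at H2afy2 in all settings. With 1 control left out the smallest p the design allows is 0.0476, and with 1 UC left out 0.0286. At H2afy2 the exact permutation test gave p = 0.0476 to 0.143 with 1 control left out and 0.0286 to 0.0857 with 1 UC left out. At Actl6b it gave 0.114 to 0.429. None was under 0.05 after adjustment over the 2 genes. With so few divisions of the samples, these settings do not decide whether the depth tests hold.

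The number of 200-bp tiles called, 24176 higher and 18589 lower, moved more. It was 15030 higher and 14309 lower with a limit of 20 points, 15167 higher and 12375 lower without moderation, 14745 and 10023 with a minimum of 10 reads per CpG, and 39138 and 37600 with a minimum of 10 calls in place of 3 CpGs. With 1 sample left out, 11622 to 32855 were higher and 10010 to 23499 lower. The lowest were without control 3, with 13827 and 10844 without control 1 and 13135 and 10475 without control 2. The highest were without UC 3. With a replicate block for the sample number, 0 tiles were called higher and 0 lower by the quasi-binomial model and by limma on percentages, chosen after seeing the data, with 77831 and 69104 tiles at an unadjusted p under 0.05. The numbers do not pair the animals: the deviations of a control and a UC with the same number had a correlation across tiles of 0.01, -0.01 and 0.03. The H2afy2 region is limited by its 2 CpGs.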

Other observations

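Between 1 and 10 kb from the Actl6b region, the controls had 79.1% ± 0.716 (SD, n = 3) and the UCs 83.2% ± 3.01 (SD, n = 5) on the downstream side, over 11 CpGs, and 77.6% ± 4.23 and 78.8% ± 2.29 on the upstream side, over 21 CpGs. At H2afy2, 23 CpGs downstream were at 28.8% ± 4.28 and 30.6% ± 6.89, and the groups overlapped. The 7 CpGs upstream of H2afy2 were lower in every UC than in every control, the reverse of the flanks, at 76.9%, 82.6% and 79.5% in controls 1 to 3 and 69.2% to 75.3% in the UCs, on 86 to 186 calls. The nearest samples were control 1 at 76.9% and UC 2 at 75.3%, a small gap on so few calls, and counting error was not set against it. In the other windows the groups overlapped. How often windows of the genome separate in this way was not counted, and this difference was not tested.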
